A study of Danio rerio with 26 samples.

Results

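A set of 173 zebrafish transcripts, of 57918 in the deposited tables, stood high in the brain of control females and withdrawal males and low in the brain of control males and withdrawal females. They were chosen on those values: the lowest of the 3 control female and 3 withdrawal male brain libraries had to reach 5 TPM and at least 3 times the highest of the 2 control male and 2 withdrawal female libraries. TPM is the abundance of a transcript per unit of its length, scaled to the same total in every library. Levels of the members in these 10 libraries are therefore a description of the choice and carry no test. Their levels in alcohol-exposed brain and in liver played no part in the choice.

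The fish were wild-type Danio rerio of the short-finned AB strain, with the sexes kept in separate tanks except when bred in the later weeks of the exposure. Alcohol-exposed males and females were held in 0.5% ethanol for 9 weeks, with 30 fish to a tank, and controls were moved daily between tanks without ethanol. How long the withdrawal males and females were kept out of ethanol, and how many fish made up each pool, is not stated in the labels. The brain set held 2 control male, 3 control female, 2 alcohol male, 2 alcohol female, 3 withdrawal male and 2 withdrawal female libraries, and each of the same 6 groups had 2 liver libraries. Tissue was pooled within groups. No label ties replicates to different fish or pools, so the p-values below speak only of library-to-library spread, and that spread may be technical. In bulk tissue, fewer cells of a type and less RNA per cell cannot be told apart. The tables carry no read numbers, and sequencing depth is unknown.

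The brain contains neurons, glia, vessels and blood, and its transcript levels are known to differ with sex, region and physiological state. The liver is the main site of ethanol breakdown, and its transcriptome is dominated by secreted proteins whose production differs between the sexes in egg-laying fish. One gene can give rise to several transcripts, and reads shared between them are divided by a statistical model, so a transcript can be listed at 0 while another of the same gene is not. The tables name transcripts by Ensembl identifier only, and the reference tables used here list genes without their transcripts. No gene name, role, position or sequence of a member is therefore given, and the tissue labels could not be checked against marker genes.

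The sex labels were followed by another set of transcripts. With the same thresholds, 96 transcripts were high in females of both control and withdrawal brain and none were high in males of both. All 96 also stood higher in both alcohol female brains than in both alcohol male brains, as did 25.6% of all brain transcripts with at least 1 TPM in 2 libraries. The members crossed these labels, pairing females of one condition with males of another. The same thresholds found 0 transcripts high in both withdrawal groups and 3 high in both control groups. The reverse of the members' rule, with control males and withdrawal females high, found 13.

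The excess over the reverse rule was smaller on another scale. Over all 36682 brain transcripts with at least 1 TPM in 2 libraries, 25.7% had every control female and withdrawal male library above every control male and withdrawal female library in deposited TPM, and 3.89% had the opposite order. After rescaling the libraries by the median of their ratios to the geometric mean, these shares were 12.8% and 12.8%. On rescaled TPM the rule found 134 transcripts, of which 123 were members, and the reverse rule found 33. The rescaling centres the ratios of each library, so it draws the 2 directions toward balance by its construction. Transcripts at the edge of the rule had a ratio of 3.01 or 3.02 just inside it and 2.98 or 2.96 just outside it, and lowest levels of 5.00 and 5.03 TPM just inside the floor against 4.97 and 4.93 TPM just outside it.

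Within the brain, members ranged from transcripts listed at 0 on the low side to transcripts with a measurable level there. In 25 of the 173 all 4 control male and withdrawal female libraries were listed at 0, and in 48 all 4 lay below 1 TPM. The mean over the 6 high libraries was between 6.65 and 799.9 TPM, with a median of 20.5 TPM, and 84 members had a mean under 20 TPM, 69 of 20 to under 100 TPM and 20 of 100 TPM or more. For the 148 members above 0 on the low side, the median ratio of the lowest high to the highest low library was 4.65. All members together held 0.583% to 1.13% of TPM in control female brains and 0.832% to 1.07% in withdrawal male brains. They held 0.0241% to 0.0363% in control males and 0.0289% to 0.0737% in withdrawal females.

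The most abundant member was ENSDART00000147546.2. It stood at 689, 488 and 631 TPM in control females and at 1123, 821 and 1047 TPM in withdrawal males. Both control males and withdrawal female replicate 1 were listed at 0, and withdrawal female replicate 2 was at 66.0 TPM. The next, ENSDART00000149844.1, stood at 768, 364 and 562 TPM in control females and at 656, 408 and 590.5 TPM in withdrawal males. All 4 low libraries listed it at 0. Of the members above 0 on the low side, ENSDART00000171354.1 had the largest gap between the sides. Its control female levels were 34.3, 22.2 and 29.0 TPM and its withdrawal male levels 41.9, 26.1 and 40.0 TPM, while both control males were listed at 0 and the withdrawal females reached 0.2 TPM at most.

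Single libraries shaped the edges of the set. Control female replicate 2 was the lowest of the 6 high libraries for 91 members, and withdrawal female replicate 2 was the highest of the low libraries for 101 of the 148 members above 0 there. Without the first of these libraries the rule found 275 transcripts, and without the second it found 396. Of 868 transcripts that met the rule in the 4 replicate 1 libraries alone, 189 (21.8%) met it in the other 6 libraries as well. Among all 57918 transcripts, 231 met it in those 6 libraries. All these libraries were used by the rule and replicates may be technical, so this overlap does not test the pattern.

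**Figure D1:**
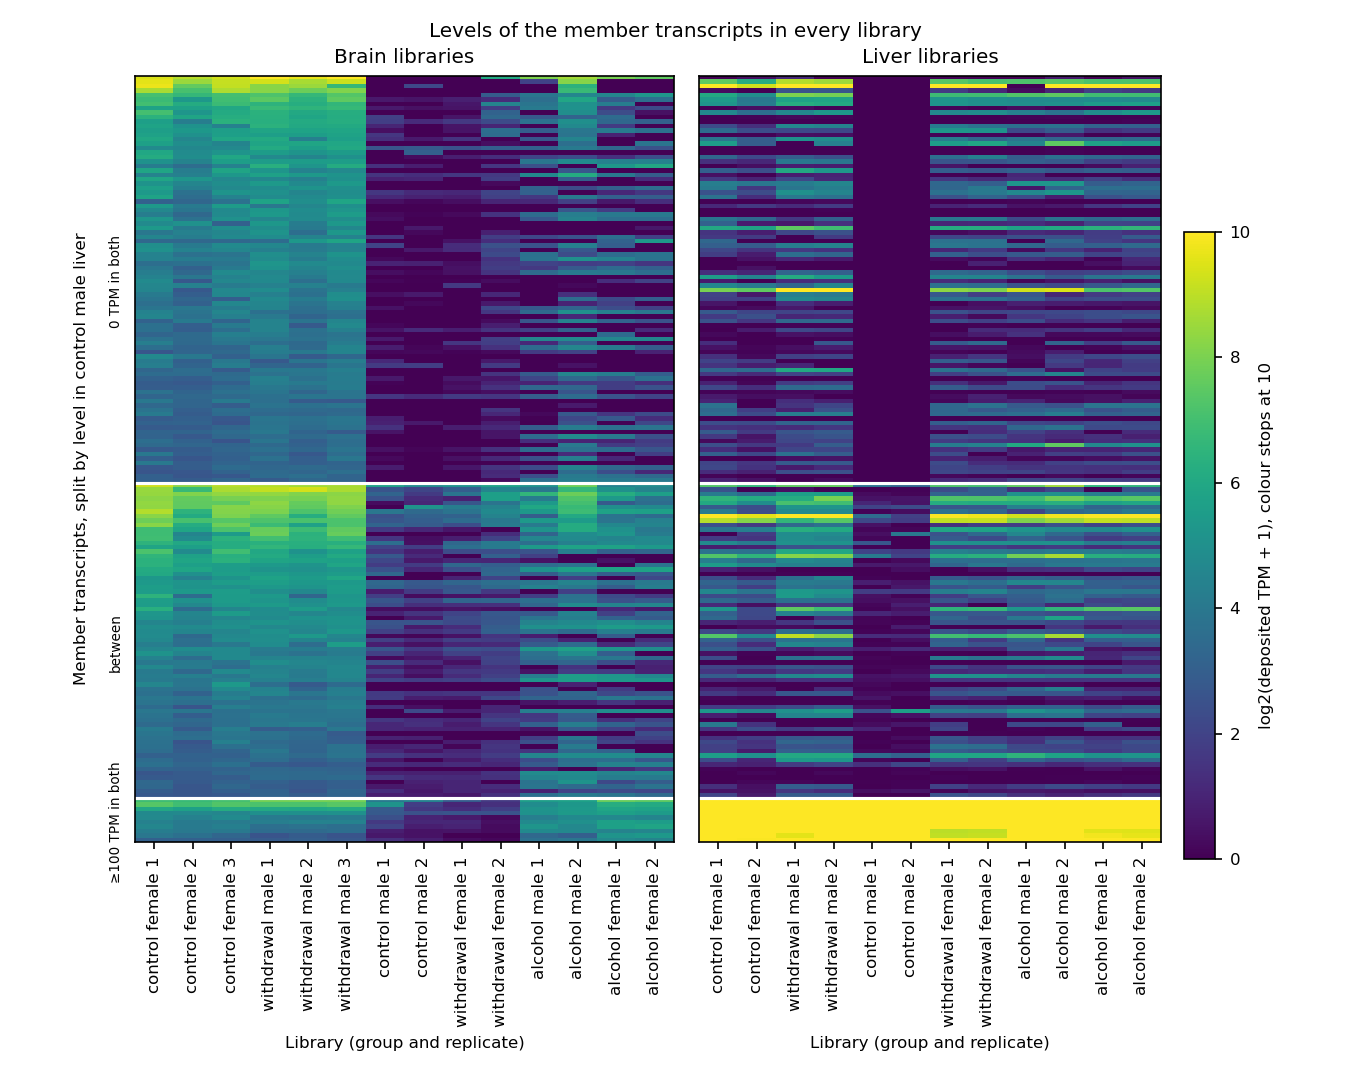
Each row is 1 of the 173 members and each column 1 library, with brain on the left and liver on the right, coloured by log2(deposited TPM + 1). White lines split members by their level in control male liver: 92 at 0 in both libraries, 71 between, and 10 at 100 TPM or more in both. The brain columns of control females and withdrawal males are high by the rule, the alcohol columns mix low, intermediate and high members, and the control male liver columns are at 0 for the 92 rows of the top block.

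Under alcohol, the members spread in deposited TPM over the whole range between and beyond the groups that chose them. In each of the 4 libraries 61 to 69 of the 173 lay between the sides, 36 to 73 lay at or below their highest low library and 33 to 68 at or above their lowest high library. The mean over the 4 alcohol-exposed brain libraries, as a percent of the member's mean in the 6 high libraries, had a median of 24.2% over members. It was under 10% for 47 members, 10 to under 50% for 71, 50 to under 100% for 25 and at or above 100% for 30. All members together held 0.191% to 0.435% of TPM in alcohol-exposed brain. On rescaled TPM the median was 10.2%, since the divisors were 2.05 to 2.18 for alcohol-exposed brains and 0.599 to 0.946 for the others. Fewer members were at or above 100% on that scale. They were 0 of the 92 at 0 in control male liver, 3 of the 71 between and 3 of the 10 abundant there. These percents compare alcohol with libraries that chose the members, so they were not tested.

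Alcohol male replicate 2 stood apart from the other alcohol libraries for these transcripts, here in deposited TPM. The median member level was 16.2% of the high mean in alcohol male replicate 1 and 45.7% in alcohol male replicate 2, and 19.3% and 15.1% in the females. Alcohol male replicate 2 was the highest of the 4 for 101 of the 173 members, and for 35.2% of all brain transcripts tested. It reached the range of the high groups for 68 members, while the other 3 libraries did so for 33, 46 and 36. Over all 4 libraries together, 23 members never exceeded their highest control male or withdrawal female library, 25 always reached the range of the high groups, and 13 always lay between. The remaining 112 changed class from library to library. The 15 members listed at 0 in all 4 alcohol brains included ENSDART00000171354.1, and 1.49% of all brain transcripts tested were so listed.

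ENSDART00000147546.2 stood at 264 and 385 TPM in alcohol males and at 249 and 186 TPM in alcohol females. In deposited TPM these lay below every high library and above every low one. The divisors were 2.05 for alcohol female replicate 2 and 0.677 for withdrawal female replicate 2. On rescaled TPM, alcohol female replicate 2 therefore lay below withdrawal female replicate 2 for this transcript. ENSDART00000149844.1 was at 2.99 and 293 TPM in the 2 alcohol males and was listed at 0 in both alcohol females. Both males lay below every high library and above the low ones, far apart from each other. The member with the highest level under alcohol relative to the high groups, at 303%, was a transcript of 5.36 to 9.94 TPM in the high libraries that reached 21.3 to 27.7 TPM in all 4 alcohol brains. It also lay nearest to the ratio threshold.

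**Figure D2:**
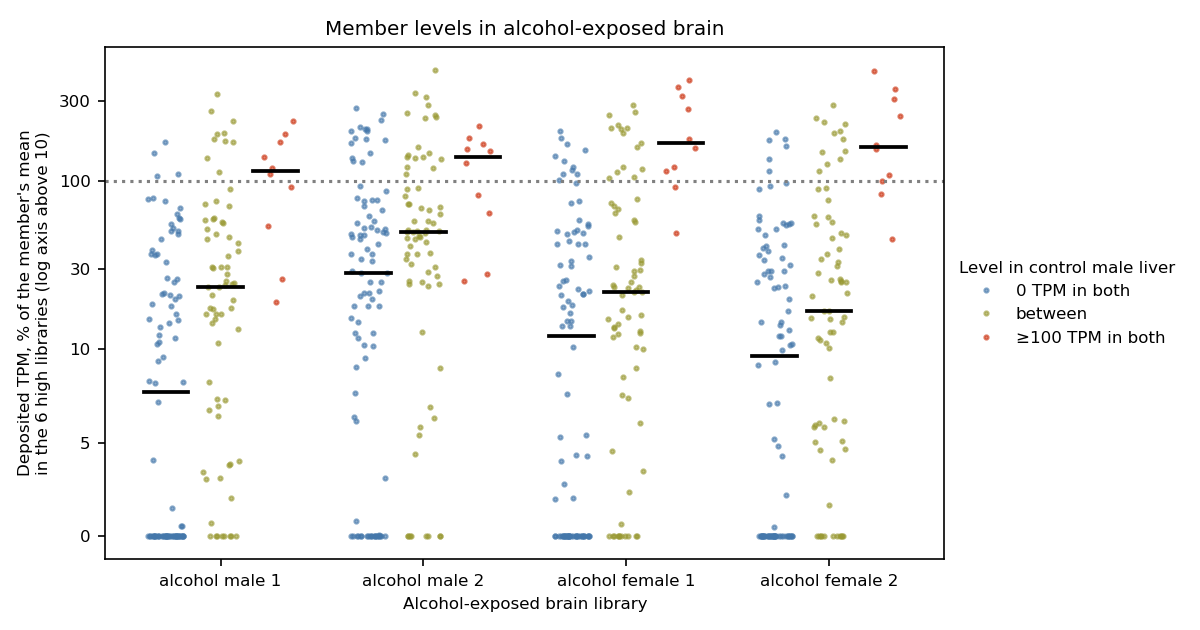
Each point is a member in 1 alcohol-exposed brain library, as a percent of that member's mean in the 6 high libraries (log axis above 10, dotted line at 100%), split by its level in control male liver, with a black bar at the median. All values are of deposited TPM. Alcohol male replicate 2 has the highest medians of the 4 libraries for the classes at 0 and between (28.5% and 49.8%). The class at 100 TPM or more in control male liver has medians of 115% to 169%.

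The difference between alcohol-exposed females and males used no level from the libraries of the rule. Its spread was estimated from all 14 brain libraries, those of the rule included. On log2(rescaled TPM + 1), limma called 5 of the 173 members higher and 9 lower in female than in male alcohol brains, against a background of 3.68% higher and 3.04% lower among 36682 transcripts. The member shares of 2.89% and 5.20% lay near those. The median female minus male difference was −0.15 over members and 0.01 over all transcripts. Without alcohol male replicate 2 there were 4 higher and 0 lower, and without alcohol female replicate 1, or without replicate 2, there were 7 calls in all. With only the alcohol libraries fitted, 1 member was called, ENSDART00000056095.5.

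Of the members higher in females, ENSDART00000146940.2 stood at 34.9 and 39.5 TPM in alcohol females and at 9.54 and 7.16 TPM in alcohol males. The log2 difference was 1.90 (SE 0.25, limma adjusted p = 0.00117). ENSDART00000056095.5 stood at 205 and 178 TPM in females and at 46.9 and 49.8 TPM in males, a log2 difference of 1.92 (SE 0.33, limma adjusted p = 0.00693, and 0.0512 without alcohol female replicate 1). Both are among the members abundant in liver described below. ENSDART00000132702.1 is not, and was listed at 0 in both control male livers. It stood at 39.5 and 62.95 TPM in alcohol females and at 4.52 and 0 TPM in alcohol males. Its log2 difference of 3.78 (SE 0.67, limma adjusted p = 0.0081) was the largest over the members. Of the members lower in females, ENSDART00000132000.2 stood at 2.17 and 3.75 TPM in females and at 16.6 and 33.3 TPM in males (log2 difference −2.37, SE 0.40, limma adjusted p = 0.00585, and 0.0528 without alcohol male replicate 2 or 0.0535 without alcohol female replicate 1). ENSDART00000145980.2 stood at 13.5 and 20.2 TPM in females and at 40.2 and 43.4 TPM in males. Its log2 difference was −1.25 (SE 0.25, limma adjusted p = 0.0160), and it was −0.95 to −1.55 with 1 alcohol library left out. The female and male libraries of these transcripts did not overlap. All were named for a low adjusted p in this same comparison, so that gap follows from the choice. With only the alcohol libraries fitted, the limma adjusted p was 0.0812, 0.0285, 0.149, 0.138 and 0.151 for them in the order given.

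In liver, more members were low in control males than were high there, and a small class was abundant in them. Both control male livers listed 92 of the 173 members at 0, and 51 of these were above 0 in all 10 other livers. Replicate by replicate, 108 and 109 members were listed at 0 in control male livers and 11 to 28 in the others, while the share of all transcripts listed at 0 was 48.6% and 45.3% in control males and 40.8% to 50.3% in the others. The median member was at 0 TPM in both control male livers, at 1.59 and 3.09 TPM in control females and at 2.93 to 5.66 TPM in alcohol and withdrawal livers. No member exceeded all other livers by the thresholds of the rule in control males, and 27 fell short of all others by them. Those 27 are 15.6% of the members and 7.99% of the 338 transcripts of that kind among all 57918. In the other direction, 214 of the 57918 exceeded all other livers in control males by these thresholds.

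**Figure D3:**
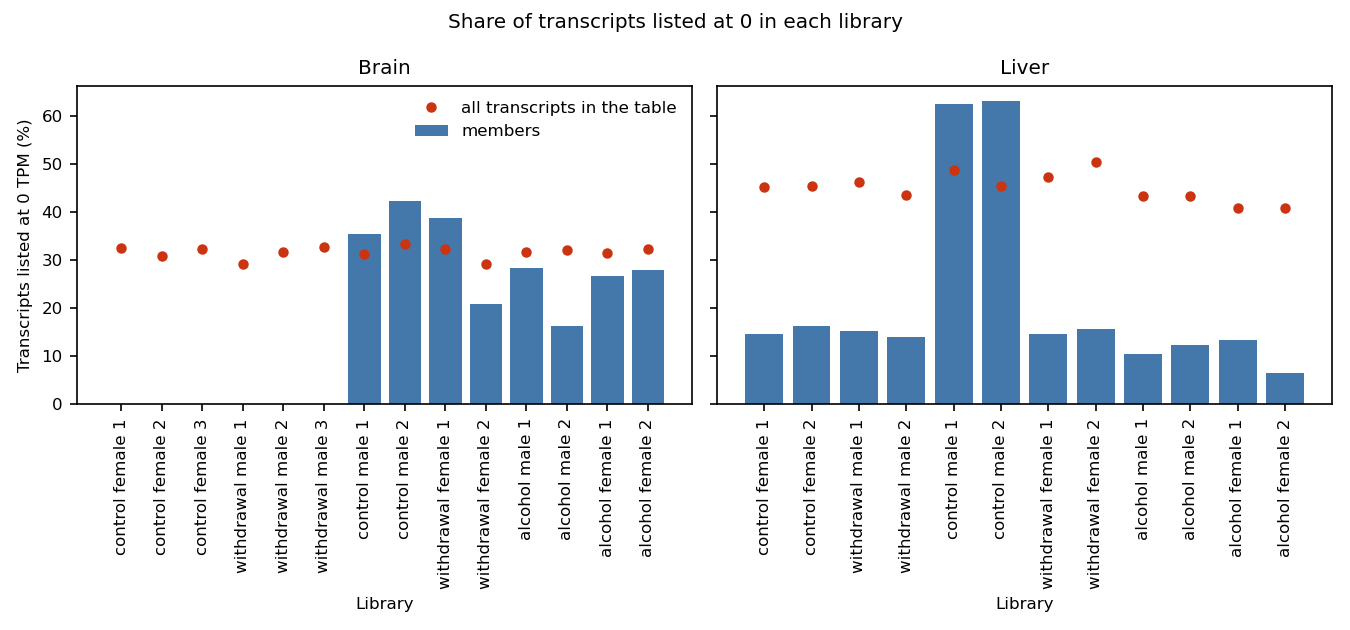
Bars give the percent of the 173 members listed at 0 TPM in each library, and red points the percent of all 57918 transcripts. In liver the 2 control male bars stand at 62.4% and 63.0%, above their points, and the bars of the other 10 livers at 6.36% to 16.2%, below theirs.

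Of the 173 members, 135 had at least 1 TPM in 2 livers and were tested there, and 38 were not. Control male livers against the mean of the other 5 groups, a comparison added after the liver levels were seen, gave 111 members lower and 9 higher by limma at an adjusted p below 0.05. Among all 21158 liver transcripts tested, 37.0% were lower and 28.5% higher. The median log2 difference was −2.11 over the tested members and −0.19 over all. A transcript at 0 in both control male livers passes the filter only through the other livers, and so is low in control males by that fact. This held for 65 of the 135 tested members and for 10.5% of all tested transcripts. A transcript above 0 but under 1 TPM in both control male livers also passes only through the other livers. Only 25 and 23 of the 173 members reached 1 TPM in control male liver replicates 1 and 2. Of the 70 tested members above 0 in at least 1 control male liver, limma called 51 lower and 9 higher, or 72.9% and 12.9%, against 33.1% and 31.9% of the transcripts of that kind. Both control male livers lay below all 10 others for 95 of the 135 members, against 24.8% of all tested transcripts in deposited TPM and 19.3% in rescaled TPM, and they lay above all others for 1 member, against 9.85%. Among the 70 members above 0 there, 45 lay below all others, against 24.7% of such transcripts. Members of the 70 under 1 TPM in both control male livers also passed the filter only through the other livers. The counts among the 70 are therefore not free of the filter.

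ENSDART00000145980.2 showed the difference with values above 0. It stood at 3.55 and 2.45 TPM in control males and at 470 and 286 TPM in control females. Alcohol males were at 265 and 378 TPM and alcohol females at 535 and 509 TPM. Withdrawal males were at 95.4 and 165 TPM and withdrawal females at 526 and 549 TPM. The log2 difference of control males was −6.02 (SE 0.21). This transcript was picked after its liver values were seen, so its p-value is left out. That the control males did not overlap with any other liver follows from the choice. ENSDART00000136131.2 was listed at 0 in both control male livers, at 189 to 247 TPM in control females, at 145 to 161 TPM in alcohol females and at 266 to 314 TPM in withdrawal females. In the other males it stood at 624 to 699.8 TPM under alcohol and at 1721 to 1849 TPM after withdrawal. This transcript passed the filter only through the other livers and was named for its low adjusted p, so its p-value is left out. In brain the same transcript was at 5.79 to 28.2 TPM in the 6 high libraries and listed at 0 in the other 8, alcohol included.

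**Figure D4:**
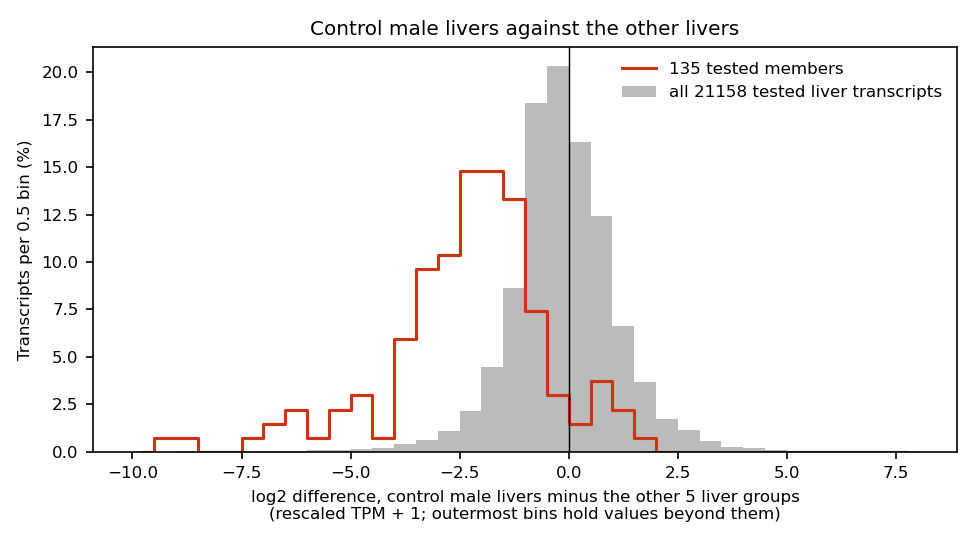
The horizontal axis is the log2 difference of control male livers minus the mean of the other 5 liver groups, and the vertical axis the percent of transcripts in each bin of 0.5, for 135 tested members (red line) and all 21158 tested liver transcripts (grey bars). The members centre on a median of −2.11 and all transcripts on −0.19.

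The planned liver comparisons all include those control male libraries, and their results are not independent of each other. The contrast of the rule carried into liver, control female and withdrawal male against control male and withdrawal female, had 98 of 135 members higher and 3 lower (limma; background 27.9% and 22.3%), and among the 70 members above 0 in at least 1 control male liver 49 were higher and 3 lower, against 24.95% and 24.5% of such transcripts. The other 65 tested members were at 0 in both control male livers, and so are low there by the filter. Those of the 70 under 1 TPM in both control male livers also passed it only through the other livers. This limit holds for every count among the 70 below. Control female livers had 97 members higher and 5 lower than control male livers (background 27.9% and 23.7%). Among the 70 members this was 45 higher and 5 lower, against 26.6% and 26.4% of such transcripts. Averaged over the sexes, 86 members were higher and 5 lower under alcohol than in control livers (background 23.7% and 21.3%). Among the 70 members this was 45 higher and 5 lower, against 22.9% and 23.4% of such transcripts. After withdrawal 98 members were higher and 10 lower than in control (background 33.6% and 28.5%). Among the 70 members this was 49 higher and 10 lower, against 30.5% and 30.5% of such transcripts.

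Without control males, the shares of members called lay nearer the background, except between the sexes. In females, alcohol against control livers gave 10 members higher and 12 lower, or 7.41% and 8.89% (background 8.65% and 7.14%), and withdrawal against control gave 25 higher and 14 lower, or 18.5% and 10.4% (background 17.5% and 16.3%). Withdrawal females had 12 members higher and 51 lower than withdrawal males, or 8.89% and 37.8% (background 19.8% and 21.2%), and both males exceeded both females for 89 of 135 members (background 34.9%) and the reverse held for 23 (background 37.4%). Under alcohol, females had 6 members higher and 29 lower than males, or 4.44% and 21.5% (background 15.5% and 13.7%). The male side was thus the higher one for most members called in both conditions, and the difference between alcohol and withdrawal in this respect was not tested. The 2 alcohol female livers and the 2 withdrawal female livers were nearly identical pairs. With each pair averaged and counted once, the counts were 0 and 3 for alcohol and 9 and 10 for withdrawal in females, 6 and 26 between the sexes after withdrawal, and 0 and 13 between them under alcohol. Single libraries also decided some totals: the count between the sexes after withdrawal fell from 63 to 34 without withdrawal male replicate 1 and to 39 without withdrawal female replicate 2. Without alcohol female replicate 1 or 2, the count for alcohol in females fell from 22 to 8 or 10, and that between the sexes under alcohol from 35 to 15 in either case.

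The members were not alike in liver. A small class of 10 stood at 100 TPM or more in both control male livers and had means of 1107 to 34362 TPM over the other 10, while the 92 at 0 in control male liver had a median of 2.51 TPM over the other livers and the remaining 71 a median of 5.23 TPM. ENSDART00000056095.5, of the first class, stood at 74618 and 70357 TPM in control male livers and at 18936 to 54888 TPM in the other livers. In brain its control female levels were 106 to 132 TPM and its withdrawal male levels 235 to 239.9 TPM. It stood at 16.2 and 20.8 TPM in control males and 6.25 and 2.13 TPM in withdrawal females.

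Under alcohol in brain, the class abundant in all livers had a median level of 163% of the high mean in deposited TPM, beside 16.3% for the members at 0 in control male liver and 26.9% for those between. On rescaled TPM these medians were 68.5%, 6.87% and 11.3%, so the order of the classes was the same but the level of the first fell below 100%. Of its 10 members, 8 had both alcohol females above both alcohol males, as did 4 of the 92, 11 of the 71 and 25.6% of all brain transcripts tested. None of the 10 was listed at 0 in any alcohol brain. These classes were formed after the values were seen, so the differences between them carry no test.

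Other transcripts abundant in liver moved in part with these members across the brain libraries. Of 13 transcripts with at least 1000 TPM in every liver and a liver mean at least 50 times their highest brain level, 7 were members. The other 6 summed to 185 to 210.2 TPM in control female brains, 245 to 265 TPM in withdrawal males and 184 to 223 TPM in alcohol-exposed brains. They summed to 56.8 and 119 TPM in control males and to 20.2 and 35.1 TPM in withdrawal females. For 5 of the 6, every control female and withdrawal male library exceeded every control male and withdrawal female library, as for 25.7% of all brain transcripts tested. None of the 6 did so by 3 times, but a transcript that did so from 5 TPM upward would be a member. The part of RNA from other tissue in the members' levels was not tested.

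Of the 13 transcripts of the reverse rule, 8 were tested in liver, and control males against the other livers had 7 of them higher and 1 lower (background 28.5% and 37.0%). A transcript can pass the filter through the 2 control male livers alone, and so be high there by that fact. How many of the 8 did so was not counted, and this comparison was added after the liver levels were seen. Withdrawal females, on the low side with control males in brain, had median member levels of 4.81 and 3.54 TPM in liver, above the 0 TPM of control males, and more members lower than higher against withdrawal males, as given above. The labels give no batch, so a preparation shared by libraries and the groups cannot be told apart.

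**Figure D5:**
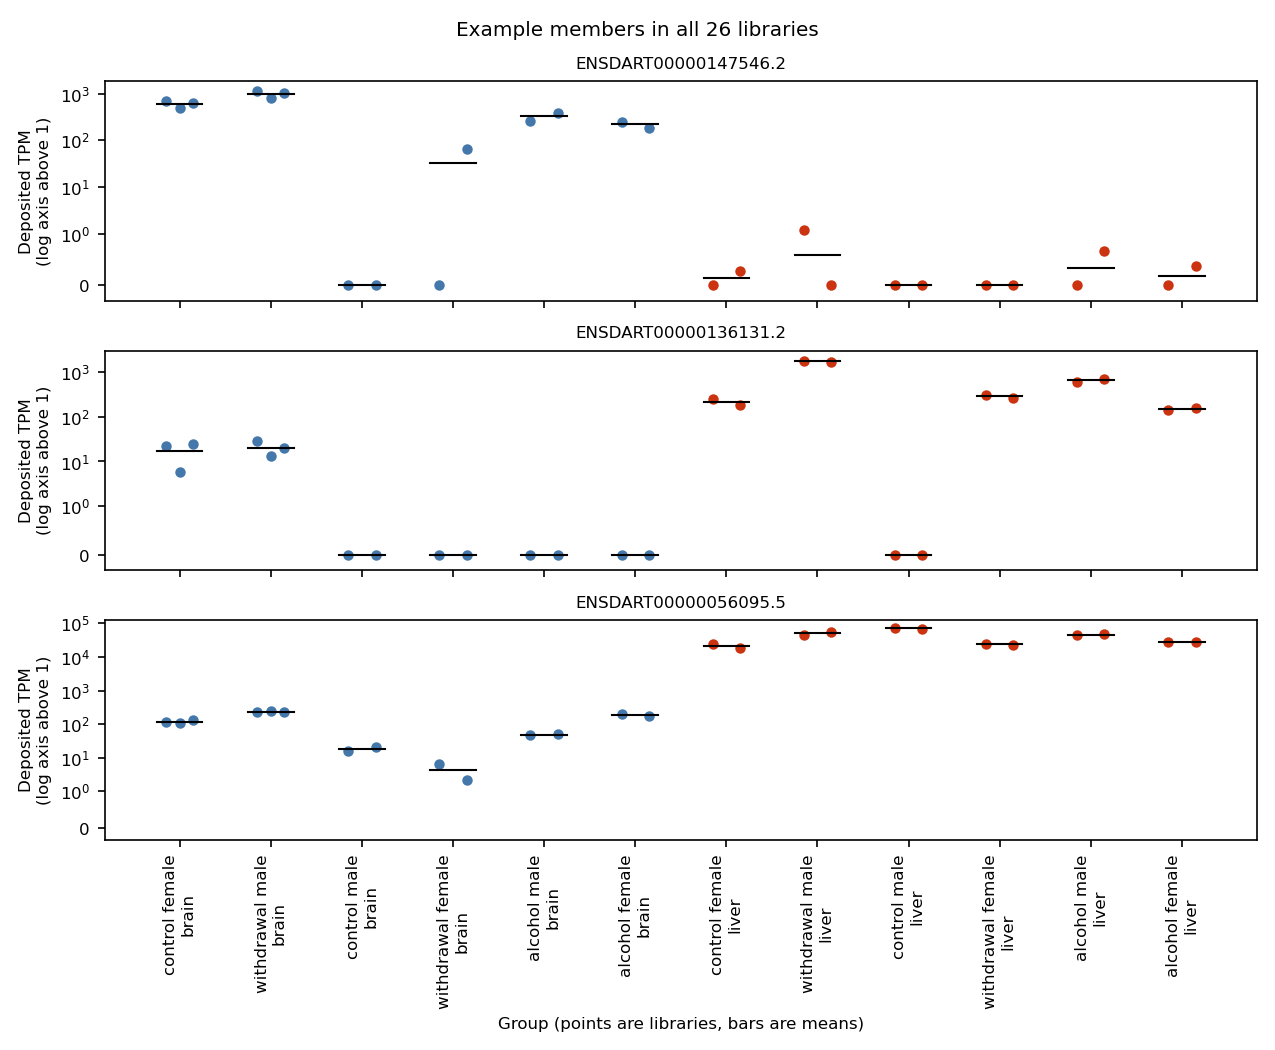
Deposited TPM (log axis above 1) of 3 members in all 26 libraries, brain in blue and liver in red, with points for libraries and bars for group means. ENSDART00000147546.2 stays at or below 1.19 TPM in liver, ENSDART00000136131.2 is listed at 0 in control males of both tissues, and ENSDART00000056095.5 is abundant in all 12 livers and low in the control male and withdrawal female brains.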

How the data were processed

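The authors checked reads with FastQC 0.11.7, aligned them with STAR 2.5.2 to danRer10 and quantified transcripts with RSEM 1.3.1, per the submitters' processing notes. They deposited TPM per transcript, 1 table for brain and 1 for liver. Libraries were non-stranded, per the labels' protocols. TPM keeps no depth, and reads shared between similar transcripts are split by a model, so 0 can be a failed allocation.

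The rule used deposited TPM. Tests used limma 3.58.1 in R 4.3.3 on log2(TPM + 1) after rescaling libraries by the median of ratios, over transcripts with at least 1 TPM in 2 libraries of a tissue. A mean was fitted for each of 6 groups, with a variance trend and Benjamini-Hochberg adjustment over all transcripts, called below 0.05. A difference on this scale understates changes of low transcripts. The procedure was tested on simulated data. Descriptions used Python 3.11.15 and pandas 2.3.3.

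Members and lists were chosen with earlier results of these data known. Members were named by the ratio of the sides, level, level under alcohol, level in liver and adjusted p, with identifiers printed for few of them; the liver values of ENSDART00000145980.2 were picked after they were seen. The marker and pathway lists by gene symbol could not be used, since no table pairs the transcripts with genes. No pairing of libraries by replicate number was seen: deviations of replicate 1 from the group means correlated between groups at −0.18 to 0.05 in brain and −0.04 to 0.10 in liver. With so few libraries to a group, this check cannot exclude a shared pool or preparation.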

Additional observations from a re-analysis of the deposited data

Results flagged for a closer look

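The difference between sexes in liver was not the same in controls as after withdrawal. Limma called 98 of the 135 tested members for a female minus male difference that was greater in controls than after withdrawal, and 3 for one that was smaller, against 27.9% and 22.3% of all 21158 liver transcripts tested. Of the 135, 65 were at 0 in both control male livers and passed the filter only through the other livers. Among the 70 members above 0 in at least 1 of them, limma called 49 and 3. The shares of such transcripts were 24.95% and 24.5%. Members of the 70 under 1 TPM in both control male livers also passed the filter only through the other livers. The control male livers enter this comparison, and they stood apart from the other livers for the members.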

How the results depend on the processing

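The number of members depended on the rule: it was 448 with a ratio of 2 and 96 with a ratio of 5, 357 with a floor of 1 TPM and 96 with a floor of 10 TPM, 868 with replicate 1 libraries only, and 176 to 396 with 1 library left out. In alcohol-exposed brain the 14 members called between the sexes became 24 without rescaling, 23 with quantile normalisation, 1 with the alcohol groups alone, 9 with a replicate block, and 4 to 20 with 1 library left out. The labels tie replicates across groups by no more than a number, and the block moved no other count by over 1.5 times.

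The liver counts that include control males kept within 1.5 times of their values under every alternative, and leaving out 1 library gave 87 to 102 for the contrast of the rule, 92 to 110 between control sexes, 79 to 103 for alcohol, 100 to 111 for withdrawal and 109 to 124 for control males against the rest. For that last comparison 111 members were lower without rescaling and 109 with quantile normalisation, while the median of all transcripts was −0.41 and −0.01. Of the 135 members tested under the main filter, 65 were at 0 in both control male livers. These passed the filter only through the other livers, so part of this stability is set by the filter and is no support. The counts without control males depended on few libraries. With nearly identical pairs averaged they were 3 for alcohol and 19 for withdrawal in females, 32 between the sexes after withdrawal and 13 under alcohol. Leaving out 1 library gave 8 to 27, 26 to 42, 34 to 54 and 15 to 27, and the female alcohol count was 14 with its 2 groups alone, of 4 higher and 10 lower. Without rescaling, that count was 16 higher and 7 lower. The causes were not tested. Depth is unknown, so what it limits cannot be stated.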
